A study of Mus musculus with 2 samples.

Results

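The p53 target genes Pmaip1, Perp, Bbc3, Bax, Cdkn1a, Mdm2, Ccng1, Sesn1 and Trp53inp1 were followed in ZHBTc4, an embryonic stem (ES) cell line of the mouse. Both of its own Oct4 alleles have been inactivated, and the Oct4 transgene that keeps it alive is shut off by doxycycline. The 9 genes were chosen by the gene name printed in the scanner files and were read by 11 probes out of 39429 on the array, or 9 of 31645 gene names. Of them, 4 are genes of apoptosis (Pmaip1, Perp, Bbc3 and Bax) and 5 are genes of cell-cycle arrest and feedback (Cdkn1a, Mdm2, Ccng1, Sesn1 and Trp53inp1).

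The clones compared were stably transfected with pCAG-IP/Nr5a2-EGFP (clone #26), pCAG-IP/Oct4-EGFP (clone #9) or pCAG-IP/EGFP (clone #2-5). All 3 were monoclonal lines, so what belongs to a transgene and what belongs to a clone cannot be told apart. All had the ZHBTc4 background, were treated with doxycycline before harvest, and were grown without feeder cells in 15% serum with 1000 IU/ml leukemia inhibitory factor. The sources used here do not state how long doxycycline was given. RNA of the Nr5a2-EGFP clone was labelled with Cy5 and hybridised on both arrays, once against Cy3-labelled RNA of the EGFP clone (the EGFP array) and once against Cy3-labelled RNA of the Oct4-EGFP clone (the Oct4 array). Each pair of clones thus rests on 1 two-colour array with no dye swap, and no test between clones could be run.

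p53, the product of Trp53, is a transcription factor that is held low by the ubiquitin ligase MDM2 and is stabilised by DNA damage and other stress. Its targets include BH3-only proteins that trigger mitochondrial apoptosis, a cyclin-dependent kinase inhibitor that stops the cell cycle, and its own inhibitor MDM2, which closes a feedback loop. Mouse ES cells lack a firm G1 checkpoint, and they are known for being primed to die by apoptosis when damaged.

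The promoters of Cdkn1a, Bax and Mdm2 are shown because the arrest gene with a pair of disagreeing probes, the apoptosis gene with the smallest direct ratios (Bbc3 being saturated) and the feedback gene can then be compared in sequence. The p53 response element is built from pairs of a 10-base motif, called the p53 decamer here. RefSeq promoter windows (GRCm38.p6, 250 bases before to 50 after the transcript start) were given for 6 of the 9 genes, in 10 windows. Perp, Pmaip1 and Trp53inp1 had none. The decamer reads the same on both strands, so a single scan covers both. Exact decamers are in capitals, and each sequence runs 5′ to 3′ on the strand of its gene. The windows lie on the plus strand of chr17:29090729-29091028 and chr17:29093519-29093818 for Cdkn1a, on the minus strand of chr7:45466849-45467148 for Bax, and on the minus strand of chr10:117710709-117711008 for Mdm2.
Cdkn1a, upstream start: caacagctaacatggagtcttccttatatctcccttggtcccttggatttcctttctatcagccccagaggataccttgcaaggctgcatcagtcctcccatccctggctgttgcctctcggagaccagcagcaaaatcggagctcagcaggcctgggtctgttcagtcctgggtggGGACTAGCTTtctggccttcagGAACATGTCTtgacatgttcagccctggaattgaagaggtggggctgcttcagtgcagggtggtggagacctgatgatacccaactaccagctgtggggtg
Cdkn1a, downstream start: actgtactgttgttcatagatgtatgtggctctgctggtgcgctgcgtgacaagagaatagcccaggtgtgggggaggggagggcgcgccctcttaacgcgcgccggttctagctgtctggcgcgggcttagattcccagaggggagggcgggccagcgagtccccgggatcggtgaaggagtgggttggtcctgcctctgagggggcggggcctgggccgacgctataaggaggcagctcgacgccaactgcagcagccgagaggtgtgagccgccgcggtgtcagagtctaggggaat
Bax: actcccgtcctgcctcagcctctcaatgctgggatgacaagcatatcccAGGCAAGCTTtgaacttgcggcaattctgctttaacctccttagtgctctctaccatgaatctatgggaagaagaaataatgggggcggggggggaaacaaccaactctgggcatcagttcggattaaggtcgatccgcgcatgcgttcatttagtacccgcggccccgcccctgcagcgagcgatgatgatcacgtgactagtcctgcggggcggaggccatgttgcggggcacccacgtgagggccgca
Mdm2: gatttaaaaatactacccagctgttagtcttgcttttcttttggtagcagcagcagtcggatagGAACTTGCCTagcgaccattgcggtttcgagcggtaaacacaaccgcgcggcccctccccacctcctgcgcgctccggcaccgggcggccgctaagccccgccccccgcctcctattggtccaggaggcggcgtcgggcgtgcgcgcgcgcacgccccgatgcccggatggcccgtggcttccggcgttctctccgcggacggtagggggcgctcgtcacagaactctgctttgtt

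An exact decamer was found in 5 of the 10 windows of p53 targets, against 8.36% of 32851 windows of all genes. A pair of exact decamers spaced by 0 to 13 bases was found in 24 of all windows (0.0731%), and the upstream start of Cdkn1a was 1 of these 24. Its decamers, GGACTAGCTT and GAACATGTCT, begin 73 and 51 bases before the start, with 12 bases between them. The 10 bases that directly follow the second decamer, tgacatgttc, differ from the motif at 1 position. Such an adjacent pair with at most 1 mismatch, a search added after the sequence was seen, was present in 18 of all windows (0.0548%). The downstream start of Cdkn1a, 2790 bases away, held no exact decamer. Bax held AGGCAAGCTT 201 bases before its start and Mdm2 GAACTTGCCT 186 bases before. Of the others, Ccng1 had GGGCAAGCCT at 185 bases, Sesn1 had AAGCTTGTTT at 173 bases in 1 of 2 windows, and the 3 windows of Bbc3 had none. These matches describe letters in a window and are not evidence of binding.

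Across the arrays, the only repeat was the Cy5-labelled RNA of the Nr5a2-EGFP clone. Its paired readings differed with an SD of 0.30 on the log2 scale over 25561 genes, and this SD served as the yardstick for every difference below. It covers hybridisation and slide error for 1 clone, and not the spread between cultures or the error of the Cy3 channels. At least 2-fold gaps between the paired readings were seen for 1.71% of genes. Nr5a2 itself, at the brighter of its probes, read -0.92 (log2) against the EGFP clone and -1.14 against the Oct4-EGFP clone, and its dimmer probe read -0.39 and -0.63. At both probes the clone labelled Nr5a2-EGFP was thus the lowest for Nr5a2, against its label, and directions below are those of the RNA so labelled. Pou5f1, the gene of Oct4, was dim: its indirect log2 ratio for Oct4-EGFP over EGFP was 0.78, but the Cy3 levels alone gave -0.020, and its Nr5a2-EGFP spot on the Oct4 array was not well above background. The sources used here do not say whether these probes lie in the transgenes, so neither gene settles the labels. All 8 pluripotent ES cell markers that were listed were well above background in every channel. Among 9 trophoblast markers 8 were, and Elf5 was not above background in any channel. With no test to be had, a gene was counted when its log2 ratio reached 1 or -1, a 2-fold difference.

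Pmaip1 and Perp, a pair of apoptosis genes, carried the large differences, and the other 7 genes read within 2-fold in all 3 comparisons at their brighter probes, Bbc3 with a saturated channel. All 9 genes were well above background in all 4 channels, none of their 20 spots was an outlier on either array, and only Bbc3 was saturated anywhere. The plot of processed signals shows each probe in its own panel. Processed signals are in arbitrary units, detrended and dye-normalised within an array by the scanner software, and they are not scaled between arrays or comparable between probes.

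**Figure D1:**
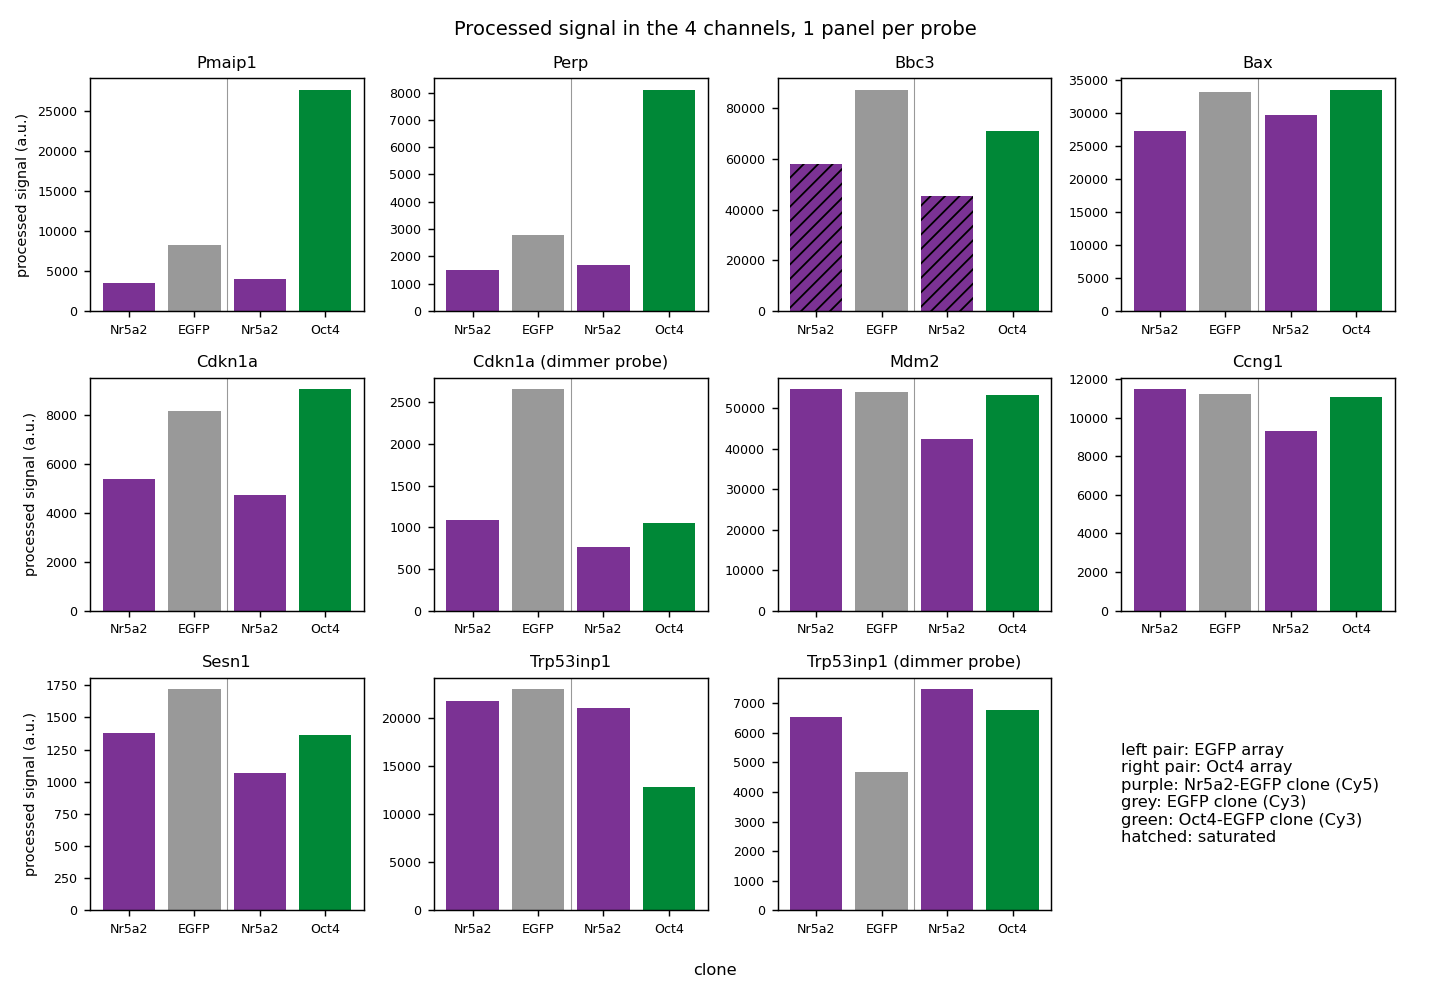
Processed signal (arbitrary units, linear axis from 0) of each of the 11 probes in the 4 channels, 1 spot each except the brighter Cdkn1a probe, whose bar is the mean of 10 spots; hatched bars are saturated. Pmaip1 and Perp are highest in the Oct4-EGFP clone and lowest in the Nr5a2-EGFP clone, while Mdm2, Ccng1 and Bax are of similar height in all channels.

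Pmaip1 encodes NOXA, a BH3-only protein that neutralises the survival factor MCL1. Its probe (NM_021451) lies on mm9 chromosome 18, 66625088 to 66625147. On the EGFP array the processed signal was 3448 in the Nr5a2-EGFP clone and 8212 in the EGFP clone. On the Oct4 array it was 3962 in the Nr5a2-EGFP clone and 27668 in the Oct4-EGFP clone. The Oct4-EGFP clone was thus the high one, and the Nr5a2-EGFP clone was low on both arrays. The log2 ratio was -1.27 over EGFP (2.41-fold lower) and -2.79 over Oct4-EGFP (6.91-fold lower). Only 71 of 26053 genes had a lower ratio over Oct4-EGFP, and 675 of 25953 had a lower ratio over EGFP. In the indirect comparison of Oct4-EGFP over EGFP, which is the difference of the arrays' log2 ratios, Pmaip1 had 1.52, with 612 of 26757 genes higher. The Nr5a2-EGFP readings differed by -0.47 (EGFP array minus Oct4 array), over the yardstick of 0.30. With the Nr5a2-EGFP level of the other array, the ratio was -0.80 over EGFP, which is within 2-fold, and -3.26 over Oct4-EGFP.

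Perp encodes a membrane protein of desmosomes that is also an effector of p53-dependent apoptosis in mouse cells. Its probe (NM_022032) lies on mm9 chromosome 10, 18576697 to 18576756. The processed signal was 1513 in the Nr5a2-EGFP clone and 2796 in the EGFP clone on the EGFP array, and 1690 in the Nr5a2-EGFP clone and 8112 in the Oct4-EGFP clone on the Oct4 array. The order of the clones was the same as for Pmaip1. The log2 ratio was -0.85 over EGFP (1.81-fold lower) and -2.24 over Oct4-EGFP (4.73-fold lower), where 213 of 26053 genes were lower. The indirect ratio of Oct4-EGFP over EGFP was 1.39, and the Cy3 levels alone gave 1.72. With the Nr5a2-EGFP level of the other array, the ratio over EGFP was -0.53 and that over Oct4-EGFP -2.57.

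The same comparison separated markers of cell identity. Of the 8 pluripotent ES cell markers, 7 were at least 2-fold lower in the Nr5a2-EGFP than in the Oct4-EGFP clone and 0 higher (median log2 ratio -2.04). Of the 8 measured trophoblast markers 7 were higher and 0 lower (median 1.78). Over all genes 7.14% were lower and 4.55% higher. The summed processed signal of the pluripotent markers was 115334 and 99301 for the Nr5a2-EGFP clone, 335824 for Oct4-EGFP and 208762 for EGFP. For the trophoblast markers it was 106419 and 86071 for the Nr5a2-EGFP clone, 25037 for Oct4-EGFP and 109748 for EGFP. These sums add unlike probes and are not scaled between arrays, so clones are not ranked by them, and the pluripotent sums hold saturated spots of Nanog, Dppa5a and Fgf4. The part of this difference in cell identity in the p53 target results was not tested, and in bulk RNA fewer cells of a type and less RNA per cell cannot be told apart. For 6 primitive endoderm markers the sums were 3692 and 3327 in the Nr5a2-EGFP readings, 1947 in the Oct4-EGFP clone and 3568 in the EGFP clone. For 7 fibroblast markers they were 6932 and 6340 in the Nr5a2-EGFP readings, 9339 in the Oct4-EGFP clone and 8180 in the EGFP clone, with Postn and Lum not above background in any channel. Thy1 made up most of each fibroblast sum, and clones are not ranked by these sums either. For Oct4-EGFP over EGFP, Thy1 read 0.51 and Dcn 0.15, while Col1a1, Col1a2 and Col3a1 read -0.11, -0.38 and -0.18.

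Bbc3 and Bax, the other apoptosis genes, did not follow Pmaip1 and Perp. Bbc3 encodes PUMA, a BH3-only protein that binds all survival members of the BCL2 family, and its probe (NM_133234) lies on mm9 chromosome 7, 16903403 to 16903462. Its processed signal was 58075 in the Nr5a2-EGFP clone and 87391 in the EGFP clone, then 45578 in the Nr5a2-EGFP clone and 70878 in the Oct4-EGFP clone. Both Nr5a2-EGFP values were saturated, so its ratios (log2 -0.37 against EGFP, -0.35 against Oct4-EGFP) are lower limits of the ratio and no direction is given. The Cy3 levels put Oct4-EGFP over EGFP at -0.0050. The Cy3 spots were not saturated, but their normalisation uses the mean of both channels, and so the saturated Cy5 values. Bax encodes the pore-forming protein of the mitochondrial membrane on which the BH3-only proteins act, and its probe (NM_007527) lies on mm9 chromosome 7, 52717122 to 52717181. Its processed signal was 27264 in the Nr5a2-EGFP clone and 33241 in the EGFP clone on the EGFP array, and 29687 in the Nr5a2-EGFP clone and 33606 in the Oct4-EGFP clone on the Oct4 array. Its log2 ratios, -0.16 over EGFP and 0.037 over Oct4-EGFP, were smaller than the yardstick. The Nr5a2-EGFP readings of Bax differed by -0.51, more than any of its ratios, and with the other array's reading the ratios were 0.35 over EGFP and -0.47 over Oct4-EGFP.

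**Figure D2:**
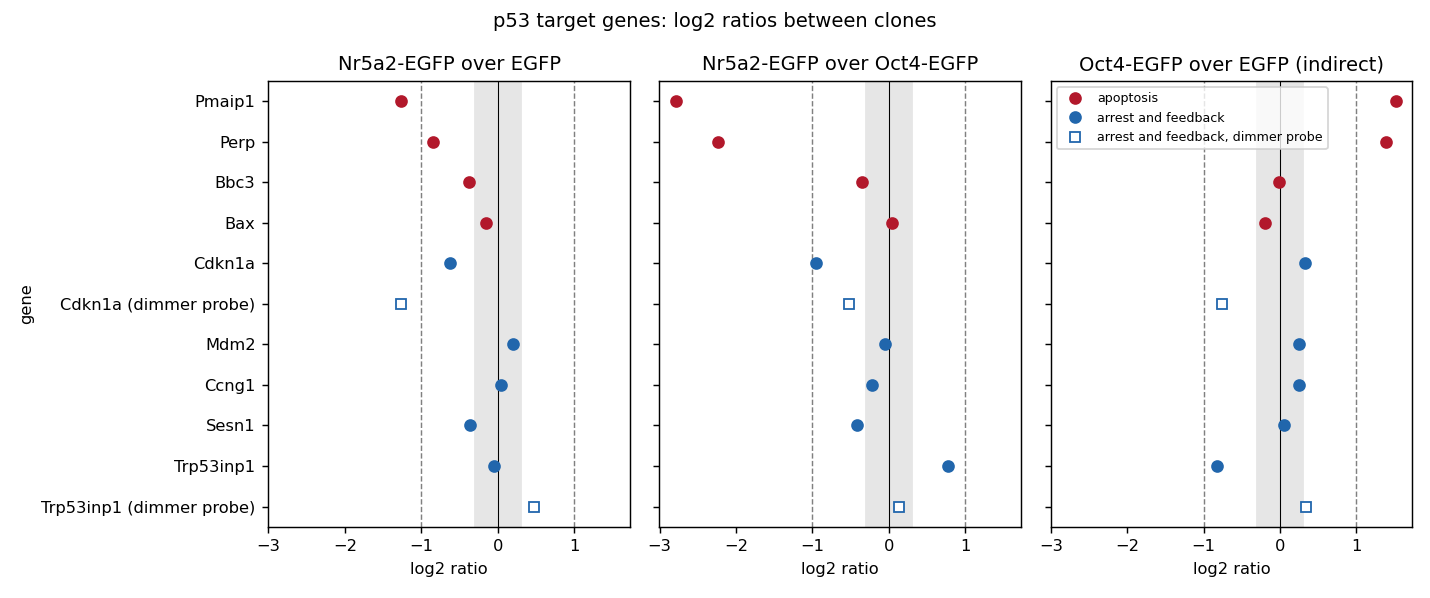
Log2 ratios of the 11 probes in the 3 comparisons (x axis), apoptosis genes in red above arrest and feedback genes in blue, open squares for the dimmer probe of a gene; grey marks the SD of 0.30 between readings of the Nr5a2-EGFP clone and dashed lines a 2-fold difference. Pmaip1 and Perp lie past the dashed lines over Oct4-EGFP and in the indirect comparison, and the dimmer Cdkn1a probe joins Pmaip1 past the line over EGFP.

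Among the arrest and feedback genes, Cdkn1a had the largest direct ratios at its brighter probe. It encodes p21, the inhibitor of cyclin-dependent kinases through which p53 arrests the cell cycle. The brighter probe (NM_007669), on mm9 chromosome 17, 29237377 to 29237436, was printed 10 times on each array. The processed signal averaged 5409 ± 164 in the Nr5a2-EGFP clone and 8195 ± 304 in the EGFP clone (SD, 10 spots) where these were hybridised together. On the Oct4 array it averaged 4732 ± 189 in the Nr5a2-EGFP clone and 9069 ± 434 in the Oct4-EGFP clone (SD, 10 spots). On neither array did the spots of the pair of clones overlap. The log2 ratio was -0.62 ± 0.027 over EGFP (SD, 10 spots), from -0.66 to -0.58, and -0.95 ± 0.028 over Oct4-EGFP, from -0.99 to -0.91. The spots share 1 hybridisation, so this SD is technical error on the slide. Both means lay outside the yardstick of 0.30, and both were within 2-fold.

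The dimmer Cdkn1a probe ordered the clones differently. The files assign it to another RefSeq transcript (NM_001111099) at transcript position 55, on mm9 chromosome 17, 29227986 to 29228045, which is 9391 bases upstream of the brighter probe. Its processed signal was 1087 in the Nr5a2-EGFP clone and 2655 in the EGFP clone, then 763 in the Nr5a2-EGFP clone and 1055 in the Oct4-EGFP clone. The EGFP clone was the high one here, whereas the brighter probe was highest in the Oct4-EGFP clone. Its log2 ratios were -1.27 over EGFP (2.41-fold lower) and -0.52 over Oct4-EGFP. The indirect ratio of Oct4-EGFP over EGFP was -0.75 at the dimmer probe and 0.33 ± 0.029 (SD, 10 spots) at the brighter one, and the Cy3 levels alone gave -1.13 and 0.40. The probes (mm9) and the windows above (GRCm38) are on different builds, so they were set side by side by distance alone. The probe starts are 9391 bases apart, nearly the whole gene of 9744 bases. The upstream and downstream starts are 2790 bases apart. If such distances hold on both builds, the dimmer probe lies before the downstream start, and only transcripts from the upstream start would hold it. Whether use of the starts differed between clones was not tested. A single spot of the dimmer probe was printed, and its Nr5a2-EGFP readings differed by 0.37. With the other array's reading its ratios were -1.64 over EGFP and -0.15 over Oct4-EGFP.

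**Figure D3:**
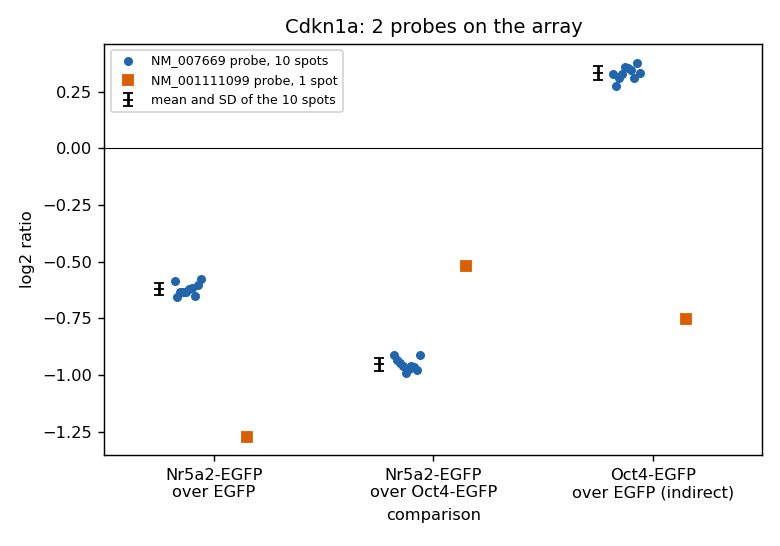
Log2 ratios (y axis) of the Cdkn1a probes in the 3 comparisons (x axis): blue points are the 10 spots of the NM_007669 probe, with mean and SD in black, and orange squares the single spot of the NM_001111099 probe. The probes stand on opposite sides of 0 for Oct4-EGFP over EGFP, at 0.33 and -0.75.

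The feedback gene Mdm2 differed little between clones. Its probe (NM_010786) lies on mm9 chromosome 10, 117126010 to 117126069. The processed signal was 54655 in the Nr5a2-EGFP clone and 53880 in the EGFP clone, and 42469 in the Nr5a2-EGFP clone and 53119 in the Oct4-EGFP clone on the other array. Its log2 ratio was 0.20 over EGFP and -0.054 over Oct4-EGFP, inside the yardstick. Ccng1, which encodes cyclin G1, a partner of the phosphatase PP2A that acts on MDM2, also read close together at its probe (NM_009831, mm9 chromosome 11, 40562427 to 40562486). It read 11469 in the Nr5a2-EGFP clone and 11212 in the EGFP clone, and 9319 in the Nr5a2-EGFP clone and 11039 in the Oct4-EGFP clone. Its log2 ratio was 0.039 over EGFP, -0.21 over Oct4-EGFP and 0.25 for Oct4-EGFP over EGFP.

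Sesn1 encodes sestrin 1, which restrains the growth kinase mTORC1 under stress. Its probe (NM_001162908, mm9 chromosome 10, 41628012 to 41628071) read 1378 in the Nr5a2-EGFP clone and 1722 in the EGFP clone, and 1064 in the Nr5a2-EGFP clone and 1363 in the Oct4-EGFP clone. The log2 ratios, -0.36 over EGFP and -0.41 over Oct4-EGFP, were just past the yardstick, and Oct4-EGFP over EGFP was 0.055. With the other array's Nr5a2-EGFP reading they were -0.54 over EGFP and -0.23 over Oct4-EGFP.

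Trp53inp1 went the other way from Pmaip1 over Oct4-EGFP. It encodes a nuclear protein that assists the phosphorylation of p53 and has roles in autophagy and cell death. The brighter probe (NM_021897, mm9 chromosome 4, 11101174 to 11101233) read 21756 in the Nr5a2-EGFP clone and 23072 in the EGFP clone, and 21023 in the Nr5a2-EGFP clone and 12824 in the Oct4-EGFP clone. The Oct4-EGFP clone was the low one. The log2 ratio was -0.049 over EGFP and 0.78 over Oct4-EGFP (1.71-fold higher), where 1997 of 26053 genes were higher. With the other array's Nr5a2-EGFP reading it was 0.46. Its dimmer probe, of the same transcript (11092530 to 11092589), read 6531 in the Nr5a2-EGFP clone and 4671 in the EGFP clone, and 7485 in the Nr5a2-EGFP clone and 6770 in the Oct4-EGFP clone. That probe gave 0.48 over EGFP and 0.14 over Oct4-EGFP, or -0.33 over Oct4-EGFP with the other reading, so the difference from the Oct4-EGFP clone was seen at the brighter probe and not at the dimmer.

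Counts past 2-fold were read beside the share of all genes. Over EGFP, 1 of 9 (Pmaip1) was at least 2-fold lower in the Nr5a2-EGFP clone and 0 higher, where 5.09% of 25953 genes were lower and 3.31% higher. Over Oct4-EGFP, 2 of 9 (Pmaip1 and Perp) were lower and 0 higher, where 7.14% of 26053 genes were lower and 4.55% higher. For Oct4-EGFP over EGFP, 2 of 9, the same genes, were higher and 0 lower, where 6.39% of 26757 genes were higher and 5.78% lower. Either way, 8.4% of genes were past 2-fold over EGFP, 11.7% over Oct4-EGFP and 12.2% in the indirect comparison. With 9 genes in all, a single gene is 11.1% of them. The median log2 ratio of the 9 genes was -0.36 over EGFP, -0.35 over Oct4-EGFP and 0.25 for Oct4-EGFP over EGFP, beside medians over all genes of 0.026, 0.0077 and 0.017. The median over Oct4-EGFP is the value of Bbc3 itself, a limit. Over the 8 genes with no saturated channel the medians were -0.26 over EGFP, -0.31 over Oct4-EGFP and 0.25 for Oct4-EGFP over EGFP. The comparisons share the Nr5a2-EGFP clone or an array, so they are not independent of each other.

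The apoptosis genes, set against the arrest and feedback genes, had a median log2 ratio of -0.61 against -0.049 over EGFP, a difference of -0.56. Over Oct4-EGFP the medians were -1.30 and -0.21, a difference of -1.08. For Oct4-EGFP over EGFP they were 0.69 and 0.25, a difference of 0.44. Each class was mixed inside: the apoptosis genes ranged from -2.79 to 0.037 over Oct4-EGFP and the arrest and feedback genes from -0.95 to 0.78, so the classes overlapped. In each comparison the median of the 4 apoptosis genes was the mean of Perp and Bbc3, the gene with saturated Nr5a2-EGFP spots. Without Bbc3, a setting added after the values were seen, the differences were -0.80 over EGFP, -2.03 over Oct4-EGFP and 1.14 for Oct4-EGFP over EGFP. Trp53inp1 also acts in cell death. With it counted among the apoptosis genes, the difference was -0.21 over EGFP, -0.041 over Oct4-EGFP and -0.27 for Oct4-EGFP over EGFP. The apoptosis median was then the value of Bbc3 itself in each comparison. These differences thus rest on the saturated Bbc3 as well as on where Trp53inp1 was placed.

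**Figure D4:**
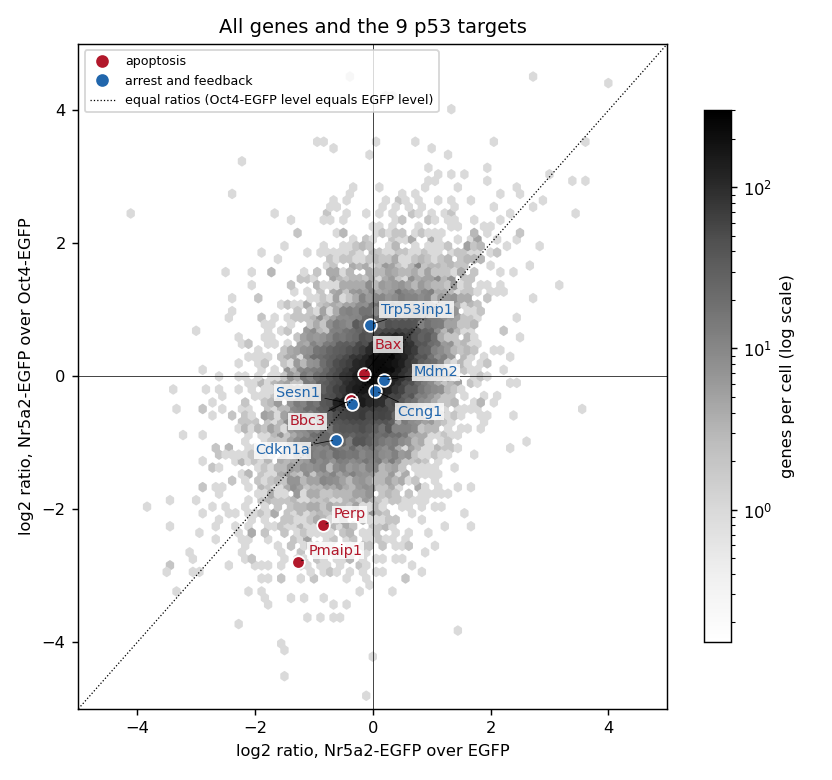
Log2 ratio of Nr5a2-EGFP over EGFP (x axis) against Nr5a2-EGFP over Oct4-EGFP (y axis) for all genes (grey, number of genes per cell on a log scale) and for the 9 p53 targets at their brighter probes. Pmaip1 and Perp lie toward the lower end of the cloud, at -2.79 and -2.24 on the y axis, and the other 7 genes lie between -0.95 and 0.78; both axes contain a reading of the Nr5a2-EGFP clone.

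The clones were ranked for the 8 genes with no saturated channel, at their brighter probes. Of these genes, 6 were highest in the Oct4-EGFP clone, 2 in the EGFP clone and 0 in the Nr5a2-EGFP clone. The Nr5a2-EGFP clone was the lowest for 4 of them, and Bbc3 was not ranked because its Nr5a2-EGFP level is a limit. The lead was inside the yardstick for Mdm2, Ccng1, Sesn1, Bax and Trp53inp1. The dimmer probes put the EGFP clone highest for Cdkn1a and the Nr5a2-EGFP clone highest for Trp53inp1. No share of all genes in each order is given, so these counts describe these genes alone. For 3 genes, Pmaip1, Perp and Cdkn1a (at its brighter probe), both steps of the order were larger than the yardstick. The Oct4-EGFP clone stood above the EGFP clone, and the EGFP clone above the Nr5a2-EGFP clone. The upper step is indirect and also carries the error of both Cy3 channels, which the yardstick does not cover. For Cdkn1a that step was only 0.33, and it was -0.75 at the dimmer probe and -0.21 as the mean over probes. For Bax, Mdm2 and Ccng1, neither step was larger than the yardstick. For Sesn1, the EGFP and Oct4-EGFP clones were closer than the yardstick, and for Trp53inp1 the EGFP and Nr5a2-EGFP clones were. The paired Nr5a2-EGFP readings lay further apart than the yardstick for 4 of the 9 genes (Pmaip1, Perp, Bax and Trp53inp1), and likewise for 13.7% of all genes.

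A wider list of 40 other p53 targets was read beside the 9. Its counts and medians include genes with saturated spots, whose ratios are not settled. Sesn2 and Ddit4 had saturated Nr5a2-EGFP spots on both arrays and Tnfrsf10b on the EGFP array, and Sesn2 was also saturated in the Oct4-EGFP clone. Against the EGFP clone, 3 of 37 that were measured passed 2-fold upward (Ephx1, Fdxr and Ptpn14), beside 3.31% of all genes. Downward, 5 passed it (Ak1, Ckap2, Dcxr, Gtse1 and Zfp365, 13.5%), beside 5.09% of all genes, and the median was -0.26. Of the 5, Zfp365 (-1.85) and Ckap2 (-1.14) had Nr5a2-EGFP readings that differed by -1.90 and -0.23. With the other array's reading, both would fall within 2-fold over EGFP. Over Oct4-EGFP, 1 of 39 was higher and 12 were lower (30.8%), with a median of -0.47, beside 7.14% of all genes lower. Of the 12, Fas was well above background in the Oct4-EGFP clone alone, so its call followed from the filter. Among the 37 genes well above background in both channels of that array, a count added after the values were seen, 11 were lower (29.7%). The share of 7.14% asks for only 1 channel above background, and no share of all genes under a stricter filter was counted. For Oct4-EGFP over EGFP, 4 of 39 were higher (Ei24, Pml, Xpc and Zfp365) and 1 lower, with a median of 0.35. Over all genes 6.39% were higher and 5.78% lower there. Fas and Dram1 entered this comparison through the Oct4-EGFP clone alone. Among the 37 genes well above background in every channel, 4 were again higher and 1 lower, with a median of 0.32. From the Cy3 levels alone Ei24 read 0.68, within 2-fold. Names in these counts were taken after the values were seen. The lowest over Oct4-EGFP were Zfp365 (-3.06), whose Nr5a2-EGFP readings differed by -1.90, and the adenylate kinase gene Ak1 (-2.42). The highest was Fdxr (1.02), which encodes ferredoxin reductase and also read higher over EGFP, at 1.24.

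Regulators of p53 read within 2-fold. None of the 14 with no saturated channel was at least 2-fold apart in any comparison. Over all genes 8.4% were that far apart over EGFP, 11.7% over Oct4-EGFP and 12.2% for Oct4-EGFP over EGFP. At such shares a count of 0 among 14 is not read as a trait of the regulators. Chek1 and Trp63 also read within 2-fold, but their Nr5a2-EGFP spots were saturated, as was Chek1 in the Oct4-EGFP clone, so their ratios are not settled. Over all 16 the list had medians of -0.0076 over EGFP, -0.19 over Oct4-EGFP and 0.24 for Oct4-EGFP over EGFP. Trp53 itself had -0.19 over EGFP and -0.95 over Oct4-EGFP, the lowest of the 16 there, and 0.76 for Oct4-EGFP over EGFP. Rchy1, a ubiquitin ligase for p53, had -0.77 over Oct4-EGFP. Ppm1d, the phosphatase that shuts off p53 signalling, had 0.73, and the p53 relative Trp73 had 0.54. Transcript levels do not report the amount or activity of the p53 protein.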

How the data were processed

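Levels of RNA were read on 2 two-colour Agilent arrays of 44397 spots, 43020 of them not controls. The spot intensity values were deposited as Agilent Feature Extraction output, with 10.7.3.1 as its version per the file headers and 9.3.2.1 per the submitters' processing notes. The processed intensity values were detrended (with its background correction option off) and dye-normalised by that software, per the file headers, and its log10 ratio of Cy5 over Cy3 was deposited beside them. A table of log2 ratios, also deposited by the authors, correlated with the software's ratios at r = 0.997 for either array. Its columns have a median of 0.029 for the EGFP array and of 0.048 for the Oct4 array. Its direction is thereby settled, but its scale and centring are not given in the sources used here. Flags for saturation, outliers and spots well above background, which are neither intensities nor ratios, are as the authors deposited them. Probe coordinates are on mm9, per the file headers.

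Mean signals were corrected with normexp (offset 50) and normalised by loess within each array with limma 3.58.1 under R 4.3.3. Control spots and outliers (530 and 523 spots) had weight 0. Channel levels were scaled between arrays by Aquantile, which the readings of the Nr5a2-EGFP clone and the Cy3 levels use. Spots of a probe were averaged. A gene was represented by its probe of highest mean intensity and entered a comparison if at least 1 of its channels was well above background. Names were updated by RefSeq accession, which matched 26055 probes (66.1%). Between 78.1% and 80.1% of spots were well above background in each channel, and the number of arrays limits the precision. The steps were tested on simulated arrays. No test between clones was possible.

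The genes, their classes, the 10 gene lists and the rule for named genes (all probes of the 9 genes, Nr5a2, Pou5f1, Trp53, the 2 highest and 2 lowest of each list over Oct4-EGFP, and the 4 genes most like Pmaip1 and Perp) were chosen with earlier results of these data known. A gene of a list that the rule names is not reported here. Promoter windows are RefSeq's on GRCm38.p6, and no coordinate was converted between builds. The alternatives were median centring, the software's ratio, the value table, the mean over probes, no background filter, the other Nr5a2-EGFP reading, an offset of 16 and another class for Trp53inp1.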

Additional observations from a re-analysis of the deposited data

How the results depend on the processing

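The counts of p53 targets at least 2-fold apart and the differences between class medians were recomputed under each alternative. With the Nr5a2-EGFP level of the other array, 0 of the 9 genes were at least 2-fold lower over EGFP, since Pmaip1 then read -0.80, and 3 were lower over Oct4-EGFP, Cdkn1a (-1.02) being the third. With Trp53inp1 counted among the apoptosis genes, the class difference was -0.21 over EGFP, -0.041 over Oct4-EGFP and -0.27 for Oct4-EGFP over EGFP, the last with its sign turned. The apoptosis median was then the value of the saturated Bbc3 in each comparison. From the Cy3 levels alone, with Trp53inp1 among the arrest and feedback genes, the difference for Oct4-EGFP over EGFP was 0.78. Without the saturated Bbc3, an alternative added after seeing the data, the differences were -0.80 over EGFP, -2.03 over Oct4-EGFP and 1.14 for Oct4-EGFP over EGFP, and the counts kept their values. Under median centring, the software's ratio, the authors' value table, an offset of 16, the mean over probes and no filter on background, the counts stayed at their values and the class differences moved by less than 0.30. Median centring moved the median of all genes to 0.16 over EGFP and 0.091 over Oct4-EGFP. No paired analysis was possible because each pair of clones has 1 array. Saturation limits Bbc3 in Cy5, and dye effects specific to a gene were not measured in the direct ratios.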

Other observations

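Other families that share a role with these genes were read from lists of related genes. Over all genes, 7.14% were at least 2-fold lower and 4.55% higher over Oct4-EGFP, and 5.09% lower and 3.31% higher over EGFP. For Oct4-EGFP over EGFP, 5.78% were lower and 6.39% higher. With lists this short, most counts below are not far from such shares, and they describe the named genes. Among 11 measured further members of the BCL2 family, 1 was at least 2-fold higher over Oct4-EGFP, Bmf (1.06), and 3 lower, Bok (-1.36), Bid (-1.09) and Bcl2l11 (-1.08, named after its value was seen), with a median of -0.15. Over EGFP, 1 was lower, Bid (-1.78), and 0 higher. For Oct4-EGFP over EGFP 1 was higher, Bok (1.32), and 1 lower, Bad (-1.24), which had 0.51 over Oct4-EGFP. Among 6 other inhibitors of cyclin-dependent kinases, 0 were at least 2-fold apart over EGFP. Cdkn1b had a saturated Nr5a2-EGFP spot on that array, so its -0.14 there is a lower limit and not settled. Over Oct4-EGFP, Cdkn1c (1.06) was higher and Cdkn2b (-1.52) lower, beside Cdkn1b at 0.72 and Cdkn2a at -0.15. Cdkn2b had 1.52 for Oct4-EGFP over EGFP.

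Pmaip1 can also be induced by the integrated stress response, and Perp is a desmosomal gene, so both groups were listed. Of 11 measured stress response genes, Atf4 (1.30) and Trib3 (1.08) were higher and Chac1 (-1.99) was lower over Oct4-EGFP, with Psat1 at -0.51. The list median there, -0.28, was the value of a gene with saturated Cy5 spots and is not settled. Over EGFP, Trib3 (1.47) was higher and Chac1 (-1.56) lower, and for Oct4-EGFP over EGFP 0 were apart. Of the desmosome genes, 0 of 10 measured were at least 2-fold apart over Oct4-EGFP, where Dsp had 0.92, Pkp2 0.62, Evpl -0.31 and Pkp3 at least -0.27, its Cy5 spot being saturated. Over EGFP 0 of 11 were, Pkp3 again with a saturated Cy5 spot, and Evpl alone was higher for Oct4-EGFP over EGFP (1.18).

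The genes whose log2 ratios on the 2 arrays lay nearest to those of Pmaip1, among 14723 genes well above background and unsaturated in all channels, were Dusp6 (-1.18 over EGFP and -2.68 over Oct4-EGFP, at a distance of 0.14), Acsbg3 (0.23), Epha8 (0.26) and Aqp3 (0.27). Those nearest to Perp were Celf5 (0.045), Htra1 (0.058), Chrna9 (0.085) and Cgref1 (0.093). Likeness over 2 ratios that share a clone is a description of these arrays.

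Among the cell identity markers, over EGFP 0 of 8 pluripotent markers were at least 2-fold higher and 2 lower, Esrrb (-2.30) and Fgf4 (-2.20), whose Nr5a2-EGFP readings differed by -1.45 and -2.93. With the other array's reading, Esrrb would fall within 2-fold and Fgf4 would turn its sign, so neither call would be kept. Of the trophoblast markers 1 was higher (Gata3, at 1.00) and 1 lower (Hand1). For Oct4-EGFP over EGFP 5 of the 8 pluripotent markers were higher (Sox2, Zfp42, Esrrb, Klf4 and Tdh) and 0 lower, and 6 of the 8 trophoblast markers were lower and 0 higher. Of 6 primitive endoderm markers, Dab2 alone was past 2-fold, at 1.86 over Oct4-EGFP and -2.64 for Oct4-EGFP over EGFP, and of 5 measured fibroblast markers 0 were in any comparison.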
